A study of Homo sapiens with 4 samples.

Results

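The second plate split of an in vitro lineage tracing experiment was examined in the branch that had been called plate 1 at the first split, by setting the library IVLT-2B_10 against the library IVLT-2B_11. The members were all cells that the deposited allele table lists under these libraries, 8031 cells in library 10 and 8948 in library 11, so 16979 of 34557 cells in the series. Of these, 16862 belonged to 11 clones, each with at least 20 cells in both libraries, and the clone was the unit of every test. Counts of states, calls and groups of identical cells are pooled over clones as descriptions.

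All cells came from A549, a human lung adenocarcinoma line that had been given Cas9, many copies of a target site and a triple-sgRNA cassette by successive lentiviral infections. About 25 cells were plated, the culture was split on day 7 and again on day 14, and cells were collected on day 21, with puromycin selection for the guide cassette in between. Both libraries share every one of these steps up to day 14 and differ in the final well and in library preparation; the labels number their plates 3 and 4, and the first digit of the library name was read as the first split. Each plate gave 1 library. A test over clones therefore compares these libraries, which every clone shares, and has no replicate plate behind it. Only target site transcripts are in the table, so the A549 identity could not be checked against marker genes.

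The recorder works by irreversible damage. Cas9 cuts the target site, the cell repairs the break with small insertions or deletions (indels), and daughter cells inherit the resulting sequence. A target site holds 3 cut sites, each read as a character, and a 14-base integration barcode (intBC) that tells apart the copies in a cell. An indel made before a split can be carried to both daughter plates, whereas an indel made afterwards starts in a single plate, unless the same repair outcome arises independently elsewhere. A state is an indel at a given cut site of a given intBC, and the character string of a cell is its full row of states, with uncut and missing entries included. A deletion that spans several cut sites is thus counted as a state at each of them.

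The calls give the unedited bases around the 3 cuts, with capitals marking the bases on either side of the position where the calls place an uncut site.
Cut site 1, uncut: ccgaAAaatg
Cut site 2, uncut: gataTCtctg
Cut site 3, uncut: attcGCggag

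Library 10 held fewer unique molecular identifiers (UMIs, each a captured transcript) than library 11. Its total was 679952 UMIs against 802551, or 84.7% of library 11. Most of that deficit lay in the number of cells, which was 89.8% of library 11, while the mean UMIs per cell, 84.7 against 89.7, stood at 94.4%. Reads went the other way. Library 10 had 118324639 reads and library 11 had 111710953, which gave 174 reads per UMI in library 10 and 139 in library 11. A total of 100 cell barcodes occurred in both libraries; 13 of them were in the same clone in both, compared with 20.8% of all cross-library cell pairs, and 0 had the same character string.

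Within clones the depth differences were small, apart from reads per UMI. The median UMIs per cell was lower in library 10 for 9 of 11 clones: 54 against 59 in Clone 1, 81 against 86 in Clone 2 and 103 against 112 in Clone 3. Clones 5 and 11 went the other way, with 32 against 31 and 90 against 82.5. Averaged over clones, the log2 ratio of library 10 to library 11 was -0.08 ± 0.09 (SD, n = 11), a ratio of 0.949, with an adjusted p of 0.0762 (p = 0.0254, exact two-sided sign-flip permutation test over clones, Benjamini-Hochberg over 18 tests). With the mean of each clone in place of its median, the log2 ratio was -0.03 (adjusted p = 0.513, exact permutation). UMIs per detected intBC had a log2 ratio of -0.03 ± 0.08 (exact permutation p = 0.193, adjusted p = 0.332), and of 104 intBCs, 79 had more UMIs per listing cell in library 11 and 19 in library 10. Reads per UMI were higher in library 10 in all 11 clones, between 157 and 223 against 122 and 180, a mean log2 ratio of 0.32 ± 0.02; the exact permutation p of 0.000977 (adjusted p = 0.00879) is the smallest that 11 clones allow.

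**Figure D1:**
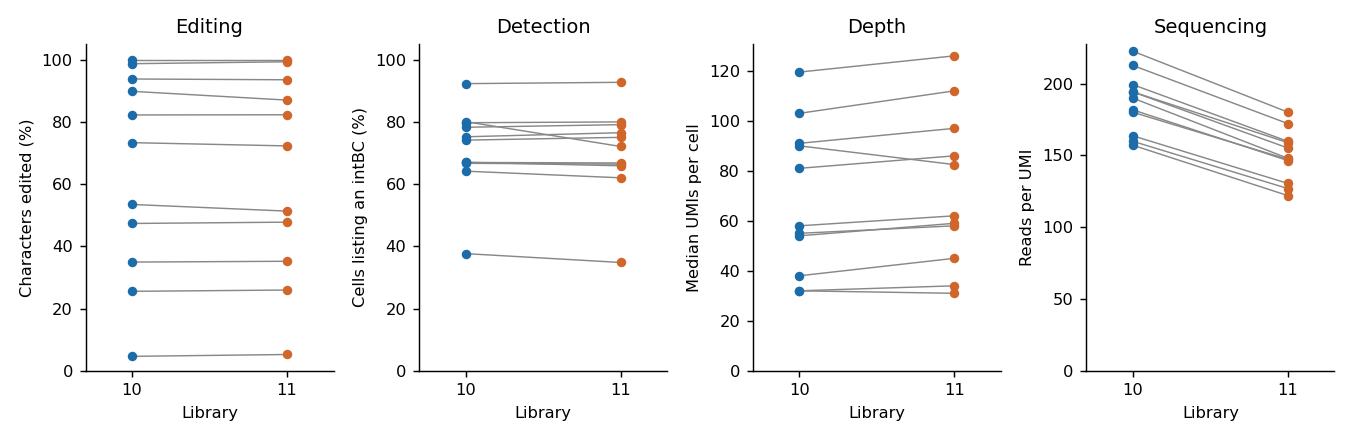
Each line joins the values of 1 clone in library 10 (blue) and library 11 (orange); the panels give the percent of characters edited, the percent of cells listing an intBC averaged over intBCs, the median UMIs per cell and the reads per UMI. Editing and detection lines are close to level, 9 of 11 depth lines run upward to library 11, and all 11 lines of reads per UMI run downward.

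Every clone was found in both libraries on day 21, after growth since the day 14 split. Shares were close for the largest clones and departed further for some smaller ones. Clone 2, the largest, made up 33.1% of library 10 (exact 95% binomial interval 32.1 to 34.2) and 33.3% of library 11 (32.3 to 34.3). Clone 1 made up 21.5% and 23.7%, Clone 3 19.0% and 17.8%, and Clone 4 5.73% and 5.90%. The intervals of the shares did not overlap for Clone 1 (20.6 to 22.4 against 22.8 to 24.6), Clone 7 (1.15 to 1.68% against 0.729 to 1.14%), Clone 8 (5.87 to 6.96% against 7.44 to 8.57%) and Clone 9 (4.87 to 5.87% against 3.81 to 4.65%). Clone 8 was thus 0.801 times as frequent in library 10 as in library 11, and Clone 9 was 1.27 times as frequent. These clones belonged almost wholly to this branch, with 1 cell of Clone 8 in each of libraries 00 and 01 (the sister pair from plate 0) and 0 cells of Clone 9.

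The widest ratios were in Clones 10 and 7. Clone 10 had 66 cells in library 10 and 47 in library 11, a share ratio of 1.56, and Clone 7 had 112 and 82, a ratio of 1.52. Clone 5, the smallest over both libraries, with 49 and 53 cells, and Clone 11, with 52 and 64, had ratios of 1.03 and 0.905. Intervals cover counting error only, and with 1 library a plate no test of the shares was possible.

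**Figure D2:**
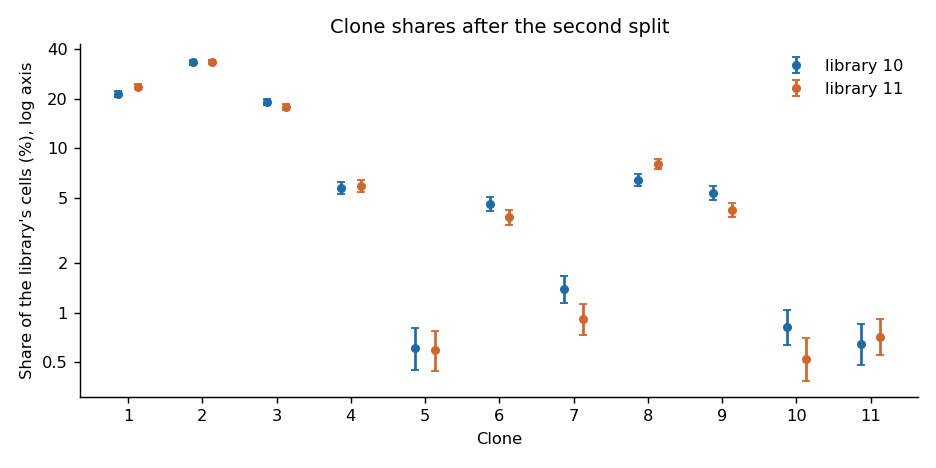
Share of each library's cells in each clone on a log axis, library 10 in blue and library 11 in orange, with exact 95% binomial intervals. Shares run from 0.525% to 33.3%, and Clones 8 and 9 lie apart in opposite directions.

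Editing levels were close in both libraries, across clones that spanned nearly the whole range of the recorder. Clone 1 was edited at 4.64% of its detected characters in library 10 and 5.23% in library 11. Clone 3 stood at 25.5% and 25.9%, Clone 2 at 34.9% and 35.2%, and Clone 10 at 47.3% and 47.8%. At the upper end, Clone 9 stood at 93.8% and 93.5%, Clone 5 at 98.7% and 99.3%, and Clone 7 at 100% in both. The widest gaps were in Clone 11 (89.8% against 87.0%) and Clone 6 (53.4% against 51.3%). The mean difference over clones was 0.354 ± 1.16 percentage points (SD, n = 11; exact permutation p = 0.375, adjusted p = 0.45), with 4 clones higher in library 10, 6 lower and Clone 7 equal.

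None of the cut sites on its own separated the libraries. At cut site 1 the mean difference was 0.552 ± 1.11 points (exact permutation p = 0.131, adjusted p = 0.262), at cut site 2 it was 0.200 ± 1.31 points (p = 0.672, adjusted p = 0.688, exact) and at cut site 3 it was 0.310 ± 2.11 points (p = 0.688, adjusted p = 0.688, exact). The signs at cut sites 2 and 3 each rest on a single clone: without Clone 6 the mean at cut site 2 is -0.104 points, and without Clone 11 the mean at cut site 3 is -0.193 points. In Clone 11 cut site 3 was edited at 79.0% in library 10 and 73.6% in library 11. Not every clone could differ at every site. Clone 7 was at 100% throughout. Clone 1 was edited at 0.174% and 0.134% at cut site 1 and at 0.234% and 0.237% at cut site 2. At cut site 3 it stood at 13.5% and 15.3%. The study left Clone 1 out of its trees, having deduced that it had defective guides.

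The kinds of indel behind these levels had similar shares. Deletions confined to 1 cut site made up 48.8% of edited calls in library 10 and 48.6% in library 11, deletions spanning 2 cut sites 32.8% and 32.4%, deletions spanning all 3 cut sites 5.999% and 5.25%, and insertions 12.3% and 13.5%. The indels seen in the most intBCs were a 2-base deletion at position 219 of the target site (taatTCggag, capitals marking the bases joined by the deletion), in 86 intBCs, and a single-base insertion at position 111 (cgccgAaaaaa, the capital marking the inserted base), in 84 intBCs. They were on 6.32% and 5.29% of the alleles of library 10 and on 6.02% and 5.68% of those of library 11. Averaged over clones, the first differed by -1.34 ± 3.05 points, library 10 minus library 11, and the second by -0.02 ± 1.56 points. Over the 10 most recurrent indels these means ran from -1.34 to 0.923 points, and each was smaller than its SD over clones.

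Averaged over the intBCs of a clone, target sites were detected about equally often, while single intBCs differed in both directions. An intBC was listed in 71.1% of a clone's cells in library 10 and 70.1% in library 11 as a mean over clones, a difference of 0.981 ± 2.65 points (exact permutation p = 0.270, adjusted p = 0.392). Of 104 intBCs, 76 differed by no more than 5 points and 10 by more than 10. The 5 largest gaps were in Clones 2, 10 and 11. In Clone 10, ATAGGTTTTGCGCG (each intBC is printed whole, in capitals) was listed in 51.5% of library 10 cells and 78.7% of library 11 cells, and AGCAACTTCCTAGT in 84.8% and 70.2%. In Clone 11, GTTAGTGGGGTCAT was listed in 73.1% and 46.9%, and TCCATGTTGGCTTC in 100% and 87.5%. In Clone 2, TCTCCCTTTTTGTT was listed in 46.0% of 2661 cells and 33.9% of 2980 cells, at 2.56 and 2.10 UMIs per listing cell, the lowest depth among these intBCs.

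The 5 largest editing gaps between the libraries fell in small clones or sparsely detected intBCs. In Clone 10, TTGTCCATAACGGT was edited at 33.9% of its characters in library 10 (57 listing cells) and 18.7% in library 11 (41 cells), ATAGGTTTTGCGCG at 52.0% and 63.1%, and AGCAACTTCCTAGT at 68.5% and 61.6%. In Clone 11, TCCATGTTGGCTTC was edited at 94.9% and 85.7%. In Clone 6, AGAAGTTACATCAC, which was listed in 35.0% and 44.3% of cells, was edited at 47.1% and 39.6%.

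**Figure D3:**
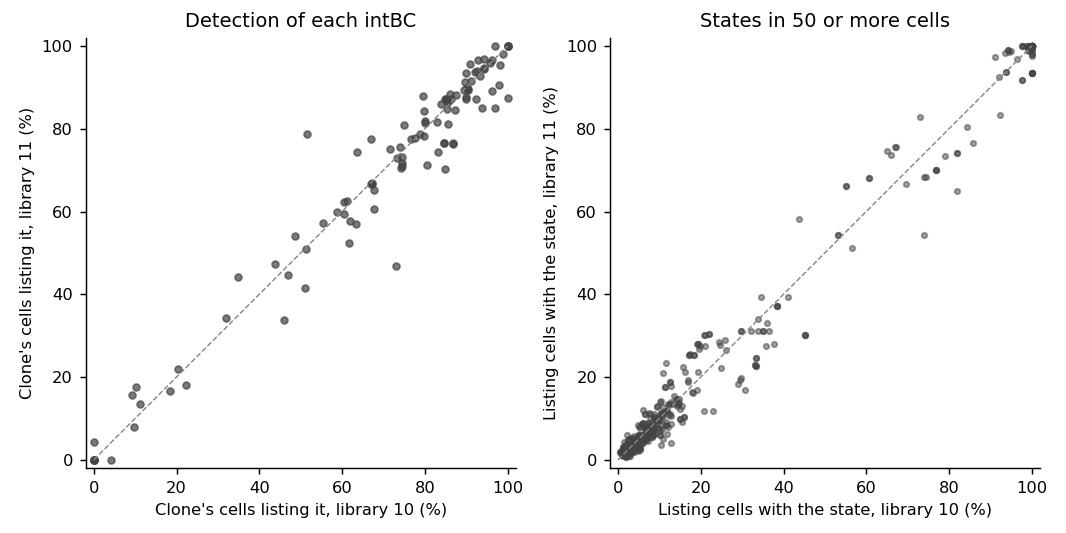
Left, percent of a clone's cells that list each of 104 intBCs in library 10 (x) and library 11 (y). Right, percent of the listing cells that carry each of 490 states found in at least 50 cells; dashed lines mark equality, 76 intBCs lie within 5 points of it, and so do 409 states.

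Abundant states were present on both sides. Among 490 states with at least 50 carriers, all were found in both libraries, the median absolute difference in the percent of listing cells was 1.10 points, 409 differed by 5 points or less and 17 by more than 10. Small gaps in points are in part small levels, since 175 of the states were under 5% in both libraries. As a ratio of percents, 28 states were more than 2-fold apart, 10 higher in library 10 and 18 in library 11. Deletions that span cut sites enter these counts more than once, so they are not counts of separate edits. The widest ratio was 3.24, for a 16-base deletion at cut site 3 of TATACCTTTGGAAA in Clone 2, which was on 12 of 2205 listing cells in library 10 (0.544%) and 43 of 2436 in library 11 (1.77%). In points, the largest gap was in Clone 11, where a 2-base deletion at cut site 1 of CGAATTTTCATGGT was on 37 of 50 listing cells in library 10 (74.0%) and on 31 of 57 in library 11 (54.4%). A 29-base deletion at cut site 2 of the same intBC was on 82.0% and 64.9%. In Clone 6, a 108-base deletion that removes the sequence between the outer cut sites of AACCAATATACAGG was on 45.2% and 30.2% of listing cells. In Clone 4, a single-base insertion at cut site 2 of GACTTTAATGTACA was on 43.8% of 329 cells and 58.2% of 397 cells. In Clone 8, a single-base insertion at cut site 1 of GCTTAGTAAATTTT was on 30.7% and 16.9%.

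Rare states, in contrast, were mostly found on a single side of the split. Of 1538 states carried by exactly 2 cells, 80.4% had both cells in the same library, whereas 50.3% of all pairs of listing cells were in the same library. The share of states confined to 1 library was 59.3% for states in 3 to 5 cells, 25.2% for 6 to 10 cells, 3.32% for 11 to 50 cells and 0% for the 485 states in more than 50 cells. Pairs of carriers were in the same library more often than all pairs of listing cells by 30.1, 25.9, 16.7, 5.44 and 0.922 points in these size classes. A state with few carriers can fall on a single side by sampling alone, so its carrier pairs are set beside all pairs.

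Taken clone by clone, the excess was present wherever such states existed. For states in 2 to 10 cells, the mean share of same-library carrier pairs was 76.6% against 51.03% of all pairs, an excess of 25.5 ± 7.59 points (SD, n = 10) that was above 0 in 10 of 10 clones (exact permutation p = 0.00195, the smallest 10 clones allow; adjusted p = 0.00879). It ranged from 6.76 points in Clone 5 to 33.1 points in Clone 9. Clone 7 had no state of this size. With its 3 intBCs fully edited, it had 9 states, and all 9 were in both libraries. The excess was 24.4 points when alleles with fewer than 5 UMIs were set to missing, and 29.5 points over states absent from libraries 00 and 01.

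**Figure D4:**
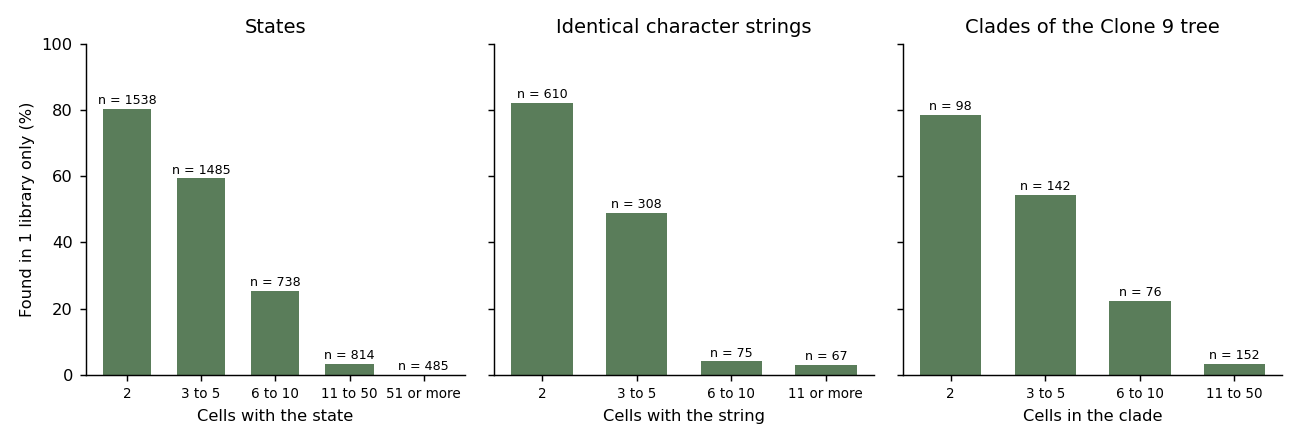
Bars give the percent found in only 1 of libraries 10 and 11, for states, for groups of cells with identical character strings, and for clades of the deposited Clone 9 tree (the Clone 5 tree, with 9 clades of 2 cells, is not plotted), by number of cells (n above each bar). All panels fall with size, from 80.4%, 82.1% and 78.6% at 2 cells to 0% of states in 51 or more cells, 2.99% of strings in 11 or more cells and 3.29% of clades of 11 to 50 cells.

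States confined to 1 library had indels that recurred in fewer intBCs than those of states on both sides. Among states in at least 5 cells, 329 were in 1 library only, 146 in library 10 and 183 in library 11, and 1993 were in both. The indel of a private state was seen in a median of 19 intBCs of the table, compared with 55 for shared states, and single-base indels made up 6.69% and 16.3%. Other traits were closer: insertions made up 14.0% and 13.2%, indels over 30 bases 24.6% and 27.3%, the median size was 15 and 13 bases, and 47.1% and 44.3% lay at cut site 2. Private states were also found in libraries 00 or 01 in 26.1% of cases and shared states in 63.9%. Among states in 5 to 20 cells these shares were 26.2% and 58.1%. All of these shares include Clones 8, 9 and 11, which had few or no cells in libraries 00 and 01. Because shared states have more carriers, with a median of 16 cells against 6, the indel comparison was repeated among states in 5 to 20 cells: the median number of intBCs was lower for private states in 8 of the 9 clones that had both kinds (17 against 41 in Clone 2, 23.5 against 55 in Clone 3, 11.5 against 62 in Clone 8) and higher in Clone 10 (66 against 63). Pooled over clones in that size range, single-base indels made up 6.71% of private and 14.8% of shared states, and insertions 14.0% and 10.6%. Shared states still had more carriers there, with a median of 9 cells against 6, so the range narrows this difference without removing it. These are descriptions of the state lists, with no test.

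The largest private states of 6 clones had at least 10 carriers, all in 1 library. Their indels were seen in 66 intBCs for Clone 8, 65 for Clone 11, 59 for Clone 1 and 51 for Clone 9. These lie above the median of 19 for private states, while Clone 3 had 19 and Clone 2 had 5. Whether the carriers of a state descend from a single edit was not tested. The junctions are shown with capitals for the bases joined by the deletion.
Clone 8, intBC TTGTTCGTTGTATT, cut site 1, 3-base deletion, library 11: cgccGAatgg
Clone 3, intBC TCTCCGCTTAAGTG, cut site 1, 24-base deletion, library 11: ccgaAGcacg
Clone 11, intBC TCCATGTTGGCTTC, cut site 3, 19-base deletion, library 10: gtagCAggac
Clone 2, intBC CTGCCAGTCGTGGC, cut site 3, 23-base deletion, library 11: gagtAGacaa
Clone 1, intBC AGCCAAATATTGCG, cut site 3, 3-base deletion, library 11: aattCGagga
Clone 9, intBC TCCTTCACAGGCGC, cut site 3, 18-base deletion, library 10: gagcTAtgcg

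The Clone 8 deletion had 22 carriers, 3.08% of that clone's library 11 cells, and was on 0 of 446 listing cells in library 10, which allows a share of up to 0.673%. Its carriers had 19 distinct character strings, missing entries included, and the allele rested on a median of 14 UMIs against 13 in the other cells. All 22 shared an 8-base deletion at cut site 2 of TTTAATGTTGCCAG, which was on 117 of 525 other library 11 cells and 77 of 446 library 10 cells. Within the 22, 5 of 20 listing cells also had a 113-base deletion across TCTGGTGCAATAGG that was found in no other cell of either library.

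The Clone 3 deletion occurred together with other states that were rare outside its carriers. Its 19 carriers were all in library 11, and it was on 0 of 1382 listing cells in library 10, which allows up to 0.217%. All 19 also had a 15-base insertion at cut site 2 of CATCATTCGCAAGT, which was found elsewhere in 0 of 1469 library 11 cells and in 5 of 1376 library 10 cells. All 19 had a 108-base deletion in GTTTCCCGGTTTGT that was on 1 of 1323 other library 11 cells and 8 of 1219 library 10 cells. A further 14-base deletion at cut site 2 of GGAAAAGCGCCACC was on 18 of 18 listing carriers, and a 25-base deletion at cut site 1 of AAATATCTCCACGC was on 10 of 18; both were on 0 other cells of these libraries. The outer states were therefore on both sides of the split and the inner ones on 1 side only.

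In Clone 11 a single private state covered 17 of 52 library 10 cells, or 32.7%. The 19-base deletion in TCCATGTTGGCTTC was on 0 of 56 listing cells of library 11, which allows up to 5.36%, and had a median of 27 UMIs in its carriers. The same deletion was also present in another intBC of the clone, ATCATAATCTGCAT, on 15 of 16 carriers, 28 of 28 other library 10 cells and 45 of 49 library 11 cells. Of the 17 carriers, 9 of the 15 that listed CTCCAAACTCCATT had a 14-base deletion at its cut site 2 that no other cell of either library had, and 3 of 15 had a different private deletion there, of 10 bases. All 17 had the 2-base deletion of CGAATTTTCATGGT that showed the largest imbalance among abundant states; outside the carriers it was on 20 of 33 library 10 cells and 31 of 57 library 11 cells. GTTAGTGGGGTCAT, the intBC with the largest detection gap in this clone, was listed in 16 of the 17 carriers, 22 of the 35 other library 10 cells and 30 of 64 library 11 cells.

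The remaining private states were smaller. In Clone 2 the 23-base deletion had 15 carriers with 15 distinct strings, missing entries included, and was on 0 of 1977 listing cells in library 10, which allows up to 0.152%. In Clone 9 the 18-base deletion had 11 carriers, all in library 10, and was on 0 of 364 listing cells in library 11, which allows up to 0.824%. In Clone 1 the 3-base deletion had 13 carriers in library 11 and was on 0 of 756 listing cells in library 10, which allows up to 0.397%. It was also on 5 cells of libraries 00 and 01, where the other 5 states were on 0 cells. Clones 8, 9 and 11 could hardly show theirs there. Clone 9 had 0 cells in those libraries, Clone 8 had 1 in each, and Clone 11 had 9 and 12. Clones 4, 6 and 10 had private states of at most 8 cells, and Clones 5 and 7 had 0 private states with 5 or more carriers.

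Private states marked very different shares of the cells. At least 1 state that was confined to a library and carried by 2 or more cells was found in 74.2% of Clone 10 cells in library 10 (exact 95% binomial interval 62.0 to 84.2) and 74.5% in library 11 (59.7 to 86.1). The shares were 42.5% and 41.5% in Clone 3 and 38.5% and 41.4% in Clone 2. They fell to 5.05% and 8.69% in Clone 1, which is barely edited, and to 4.08% and 9.43% in Clone 5, which is nearly fully edited. Clone 7 had 0 of 112 and 0 of 82. In Clone 11 the share was 69.2% in library 10 (54.9 to 81.3) and 32.8% in library 11 (21.6 to 45.7). Most of these states are small, and 50.3% of all pairs of listing cells fall in the same library, so the shares were also taken over private states in at least 5 cells. They were then 31.8% and 14.9% in Clone 10, 19.5% and 17.5% in Clone 3, 13.7% and 14.9% in Clone 2, 0.580% and 3.26% in Clone 1 and 42.3% and 7.81% in Clone 11, with 0 cells in Clone 5.

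Identical character strings followed the same pattern by size. Of 12982 distinct strings, 403 occurred in both libraries, 5951 in library 10 only and 6628 in library 11 only. Most strings were those of a single cell, which can lie in 1 library only. Groups of 2 or more identical cells numbered 1060, and 657 of them (62.0%) lay in 1 library; the share was 82.1% for pairs, 49.0% for groups of 3 to 5, 4% for groups of 6 to 10 and 2.99% above that. Of all pairs of cells in a clone, 50.4% shared a library as a mean over clones. No such share was taken for larger groups. The largest group was of 192 Clone 1 cells, 74 in library 10 and 118 in library 11, with 24 characters uncut, 3 missing and 0 edited. In Clone 7 a group of 153 cells, 87 and 66, shared 9 edited characters. The largest groups in a single library had 11 cells, one in Clone 1 with 1 edited character and one in Clone 8 with 16 edited characters, both in library 11.

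Cells with identical strings shared a library more often than cells of their clone at large. The excess over all pairs was 19.5 ± 19.2 points (SD, n = 11; 69.8% against 50.4%), above 0 in 10 of 11 clones (exact permutation p = 0.00195, adjusted p = 0.00879). It was 35.0 points in Clone 3 and 33.4 points in Clone 2, where nearly every cell was distinct, and 0.629 points in Clone 1, 1.42 in Clone 5 and -0.318 in Clone 7, where large groups of unedited or fully edited cells supply most pairs. The values of Clone 10 (49.0 points) and Clone 11 (49.9 points) rest on 1 and 14 identical pairs. The median excess over clones was 9.09 points. Pooled over clones, 51.7% of 83468 identical pairs shared a library, and 65543 of the 83468 were in Clone 1. Missing entries count in a string, and when alleles with fewer than 5 UMIs were set to missing the excess was 5.20 points with an adjusted p of 0.314 (exact permutation). Compared over the characters detected in both cells, it was 17.99 points in 8 clones, with an adjusted p of 0.0938 (exact permutation).

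A measure over all cells gave the same direction. The nearest cells of a cell, by the normalized allelic distance (1 for an indel against uncut or for a missing entry against any state, 2 for different indels, divided by the largest possible sum), were from its own library in 66.7% of cases against 49.8% of the other cells of the clone. The excess was 16.9 ± 10.5 points and was above 0 in 10 of 11 clones (exact permutation p = 0.00195, adjusted p = 0.00879). Clone 11 had the highest value, 30.9 points, followed by Clone 10 with 28.7, Clone 3 with 24.7 and Clone 4 with 24.3, and Clone 7 stood at -0.551. With alleles under 5 UMIs set to missing the excess was 9.89 points (adjusted p = 0.0352, exact permutation). Mean distances hardly separated the libraries: pairs across them were at 0.2534 and pairs within them at 0.2508, a gap of 0.0027 ± 0.0032 (above 0 in 10 of 11 clones, exact permutation p = 0.00586, adjusted p = 0.0211).

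Diversity differed by less than the spread over clones. At equal numbers of cells, the log2 ratio of the expected number of distinct states was 0.04 ± 0.11 (exact permutation p = 0.297, adjusted p = 0.392), and distinct strings made up 70.3% of cells in library 10 and 70.8% in library 11, a difference of -0.443 ± 1.96 points (exact permutation p = 0.461, adjusted p = 0.519). Clone 8 had 223 states in library 10 against 241 in an equal number of library 11 cells, and Clone 4 had 438 against 397 in equal numbers.

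The deposited tree of Clone 9, a clone found only in this branch, was read for the same pattern. It holds 807 cells on 1087 tips, with 91 cells placed more than once, and each cell was counted once a clade. Of its 98 clades of 2 cells, 78.6% were in 1 library, against 50.2% of all pairs; the share was 54.2% for 3 to 5 cells, 22.4% for 6 to 10 and 3.29% for 11 to 50. Cells under the same parent shared a library in 57.9% of 2359 pairs. The deposited tree of Clone 5 holds 49 cells of library 10 and 53 of library 11 among cells of the other plates. Its clades were less often confined to 1 library than those of Clone 9. Of its 9 clades of 2 cells 44.4% were in 1 library, against 49.6% of all pairs. The share was 11.1% for its 9 clades of 3 to 5 cells and 0% for larger clades of up to 50 cells. Same-library pairs within clades made up 57.0% for 3 to 5 cells, 52.1% for 6 to 10 and 50.6% for 11 to 50. Cells under the same parent shared a library there in 51% of 400 pairs. In both trees the pairs under the same parent matched in number the pairs of cells with identical strings, 2359 and 400. By either count, 1365 and 204 of these shared a library, so the share under the same parent repeats that of identical strings. The trees were built from the same states, so they add no independent measurement.

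The second split of plate 0, libraries 00 against 01, was used as the like comparison for 8 clones with at least 20 cells in all 4 libraries. The excess of identical strings was 18.5 points in plate 1 and 14.3 in plate 0, a difference of 4.19 ± 5.77 points (n = 8; exact permutation p = 0.0625, adjusted p = 0.161). For rare states it was 22.6 and 26.7 points, a difference of -4.14 ± 7.82 points (n = 7; exact permutation p = 0.203, adjusted p = 0.332), of which Clone 5 alone gave -19.8 points. Nearest cells differed by 0.829 ± 2.28 points (n = 8; exact permutation p = 0.305, adjusted p = 0.392) and the distance gap by 0.0005 ± 0.0008 (n = 8; exact permutation p = 0.125, adjusted p = 0.262). Private states made up 46.1% of states in 2 or more cells for libraries 10 and 11, over all 11 clones. For libraries 00 and 01 they made up 45.6%, over the 8 clones only, so these shares cover unlike sets of clones. No difference between the splits passed the threshold, and the smallest p that 8 clones allow is 0.00781.

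**Figure D5:**
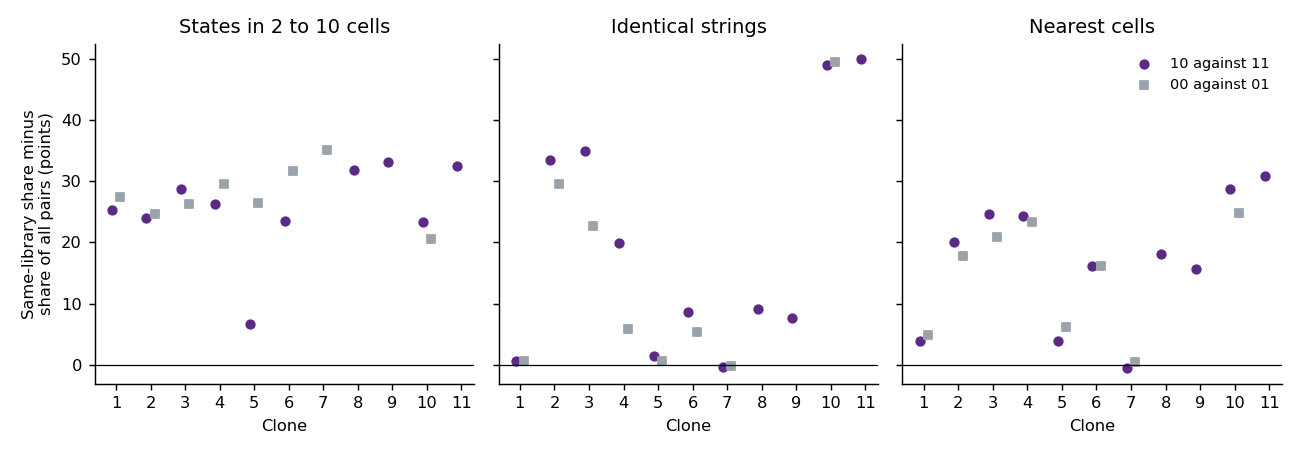
Same-library share minus the share expected from all pairs (or all other cells), in percentage points, for each clone; circles are 10 against 11 and squares are 00 against 01. Values for rare states lie above 0 in every clone that has them, while Clones 1, 5 and 7 stay near 0 for identical strings.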

How the data were processed

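Target site transcripts of 4 droplet libraries of A549 cells were read from the allele table the authors deposited, in which each row gives the UMI count, the read count and the indel at 3 cut sites for 1 intBC of 1 cell. Before depositing these counts, the authors processed reads with Cell Ranger (version 2.0.1, per the submitters' processing notes), collapsed UMIs to consensus sequences, aligned them to the target site, corrected UMIs and intBCs, kept 1 allele per cell and intBC, called clones from intBC sets and removed doublets. UMIs were filtered on a read threshold that moves with read depth, and intBCs rare in a clone were dropped, which lowers measured UMIs and removes poorly detected sites. No genome build applies to the target site.

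Values were computed per clone for libraries 10 and 11 (at least 20 cells a side) in Python 3.11.15 with NumPy 2.4.6, pandas 2.3.3, SciPy 1.17.1 and Numba 0.67.0. An intBC not listed in a cell was missing. Clone values were tested with an exact two-sided sign-flip permutation test, adjusted by Benjamini-Hochberg over 18 tests with a threshold of 0.05. Binomial intervals are exact (Clopper-Pearson, 95%), a count of 0 is given an upper limit of 3 counts, and both cover counting error only. The measures were tested on simulated clones. Named were the 5 intBCs with the largest gaps in detection and in editing (20 listing cells a side), the states of at least 50 cells with the largest gaps, the largest private states, the largest groups of identical cells and the indels in the most intBCs; the nested states, the intBC in the Clone 11 carriers and the state with the widest ratio were chosen after their values were seen. The members and lists were chosen with earlier results of these data known. Alternatives changed UMI and intBC minimums, depth, state definition, clones and label order. Cell Ranger expression values were not used here.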

Additional observations from a re-analysis of the deposited data

How the results depend on the processing

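No paired analysis was possible because each plate has 1 library, so no replicate plates can be paired; the tests over clones already pair both libraries within a clone. With alleles under 5 UMIs set to missing, the excess of identical strings was 5.20 points and no longer passed, UMIs per cell passed at -0.088 (log2) and the plate 1 minus plate 0 difference for rare states passed at -5.64 points. The sign turned there for editing at cut site 2 (-0.102 points), strings per equal cells (0.897 points) and the plate differences for identical strings (-0.434 points), distance gap (-0.000274) and nearest cells (-0.619 points). Strings per equal cells also turned with cells thinned to 30 UMIs (0.403 points). With only intBCs in at least 50% of cells, UMIs per intBC passed at -0.057 (log2) and the nearest-cell plate difference was -0.355 points. Treating indels that span cut sites as missing, cut site 3 stood at -0.0878 points. Strings compared over characters detected in both cells gave an excess of 17.99 points in 8 clones, and the other digit order, 01 against 11, gave 28.7 points in 8 clones; neither passed. In the other order the distance gap difference was -0.0026. With at least 100 cells a side, UMIs per cell passed at -0.10 (log2). Leaving out each clone in turn gave -0.104 to 0.398 points at cut site 2, -0.193 to 0.566 points at cut site 3, and -0.096 to -0.059 for UMIs per cell (log2), which passed without Clone 11. The causes were not tested. The excesses of rare states, nearest cells and distance, and reads per UMI, kept their direction and passed under every alternative run for them. Depth limits what is seen: Clones 5, 10 and 11 had 47 to 66 cells in a library, and the median cell had 71 UMIs in library 10 and 75 in library 11.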

Other observations

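Cells outside the 11 clones numbered 67 in library 10 and 50 in library 11, compared with 2 in each of libraries 00 and 01. Over the 8 clones with at least 20 cells in each of the 4 libraries, the nearest-cell excess was 15.2 points for 10 against 11 and 14.3 points for 00 against 01, compared with 39.9 points for 01 against 11, and the mean distance across libraries exceeded that within them by 0.0016 for 10 against 11 and 0.0570 for 01 against 11. The pair 10 and 11 was the closer by both measures.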
